A study of Mus musculus with 12 samples.

Results

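The genes described here encode 10 receptors of the TNF receptor superfamily that activated CD4 T cells carry: Tnfrsf4 (OX40), Tnfrsf9 (CD137), Tnfrsf18 (GITR), Cd27, Fas, Tnfrsf1a (TNFR1), Tnfrsf1b (TNFR2), Tnfrsf14 (HVEM), Tnfrsf8 (CD30) and Tnfrsf25 (DR3). They were taken by gene symbol from the 24561 genes of the count table, and all 10 were among the 12719 genes that passed edgeR's expression filter. RNA was sequenced from CXCR5hi PD-1hi OT-II cells, ovalbumin-specific CD4 T cells on the C57BL/6 background, which had been sorted as follicular helper T (Tfh) cells on day 3 after immunization with NP-OVA. The cells came from CD45.1 Sap-/- recipient mice, whose own T cells lack the adaptor SAP. The recipients had been given CD4-Cre OT-II cells, labelled wild-type (3 mice), or CD4-Cre × Bcl6fl/+ OT-II cells, labelled BCL6-insufficient (3 mice), in which the Cre, driven by the Cd4 promoter and so active from the thymus on, can delete a single Bcl6 allele. Both groups thus carried the Cre and at least 1 intact Bcl6 allele, and about 200 cells of each mouse were sequenced in each of 2 technical repeats, which gave 12 libraries of 3343375 to 8315722 counts.

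TNF receptors are membrane proteins that are brought together by trimeric ligands on neighbouring cells. OX40, CD137, GITR, CD27, HVEM, CD30 and TNFR2 recruit TRAF adaptors and act as costimulators through NF-kB, whereas Fas, TNFR1 and DR3 hold a death domain that can also start caspase signaling. On helper T cells OX40 is induced by the T cell receptor and supports survival and helper function, CD27 is already present on naive cells, and Fas limits expanded clones.

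Every direction below rests on the labels, because the transcript of Bcl6 itself was higher in the mice labelled BCL6-insufficient, at 148.7 ± 2.18 against 62.4 ± 11.5 normalized CPM (counts scaled to library size; mean ± SD, n = 3 mice each). Its log2 fold change of 1.25 had a standard error (SE) of 0.12 and an adjusted p of 6.3e-07 in edgeR's quasi-likelihood test. That p is adjusted by Benjamini-Hochberg, as are all such values below. Reads of a deleted allele are counted together with those of an intact allele, and the cause of the higher Bcl6 level was not tested. CD4 T cell markers were at 12427 to 13637 summed CPM with the BCL6-insufficient label and at 9141 to 10847 with the wild-type label, and Tfh markers at 2532 to 2554 and at 2433 to 2680. These sums hide opposite changes. Of 9 CD4 T cell markers, the receptor constant genes Trac (0.55), Trbc1 (0.29) and Trbc2 (0.51), of which Trac and Trbc2 carry most of the sum, were called higher, while Cd4, Cd5 and Lck were called lower (-0.34, -0.34 and -0.33), with 3 higher and 1 lower under upper-quartile scaling and 2 higher and none lower once GC and length trends were removed (2 and 3 with the replicate block as well). Of 12 Tfh markers, Bcl6, Icos (0.64) and Maf (0.74) were called higher, and Tox2 (-0.80, adjusted p = 8.01e-06) and the markers of the sort, Cxcr5 (-0.40, adjusted p = 0.00476) and Pdcd1 (-0.42, adjusted p = 0.00420), were called lower in edgeR's test. For these Tfh markers, technical repeat 1 alone gave 3 higher and 2 lower. In limma on TPM they were 2 higher and 3 lower over filtered genes, and 1 and 1 with log2(TPM + 1) over all genes. B cell markers stayed at 14.8 to 95.7, and CD8 and NK markers at 24.3 to 40.4 with Eomes and Klre1 at 0. Of all genes tested, 2288 (18.0%) had an adjusted p under 0.05, with 1166 higher under the BCL6-insufficient label (9.17% of all genes tested) and 1122 lower (8.82% of all genes tested). In limma on log2(TPM + 1) the split was 390 higher and 915 lower.

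The members lie mostly in a single stretch of the genome. In GRCm38, 7 of the 10 genes are on chromosome 4 between 145.2 and 156.0 Mb, Cd27 and Tnfrsf1a are on chromosome 6, and Fas is on chromosome 19. Tnfrsf4, on the plus strand from 156013843 to 156016612, and Tnfrsf18, on the plus strand from 156026164 to 156028895, are neighbours with 9551 bases between them. Promoters from RefSeq (GRCm38.p6), taken as the 250 bases before each annotated start, were found for all 10 members, with 2 starts each for Tnfrsf9 and Tnfrsf25. The neighbouring pair is shown first, because the transcripts of these genes were measured side by side below and only the first was called. Capitals mark TTCNNNGAA, a palindrome of 9 bases that reads alike on both strands and is the core letters of sites known for BCL6 and STAT factors.
Tnfrsf4 promoter, chr4:156013445-156013694, plus strand: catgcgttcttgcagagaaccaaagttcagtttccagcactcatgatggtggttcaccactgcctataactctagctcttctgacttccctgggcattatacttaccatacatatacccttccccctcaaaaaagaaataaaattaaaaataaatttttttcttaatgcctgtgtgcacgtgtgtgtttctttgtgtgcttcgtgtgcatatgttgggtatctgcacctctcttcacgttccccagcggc
Tnfrsf18 promoter, chr4:156026072-156026321, plus strand: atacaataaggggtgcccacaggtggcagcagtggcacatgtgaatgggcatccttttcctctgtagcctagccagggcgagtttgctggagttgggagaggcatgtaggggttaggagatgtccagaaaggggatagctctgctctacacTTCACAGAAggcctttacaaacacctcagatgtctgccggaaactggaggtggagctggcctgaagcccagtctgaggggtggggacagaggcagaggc
The Tnfrsf4 window held no match of the palindrome, and the Tnfrsf18 window held it with its first base 99 bases before the RefSeq start. The RefSeq starts are not always those of the gene coordinates above, which are from GENCODE, and the matches of Tnfrsf18, Tnfrsf9, Tnfrsf1a and Tnfrsf25 lie after the GENCODE start of their gene. Of the 10 members, 6 had a match in a promoter window (6 of 12 windows), while 7.02% of all 32851 promoter windows of this length held the palindrome. The other 5 matches are shown with up to 10 bases on each side, to let the spacer letters be compared.
Tnfrsf9, chr4:150927853-150927881, plus strand: caacagctgaTTCCAAGAAacccttcaga
Fas, chr19:34290556-34290584, plus strand: tcaaagcgatTTCTGGGAAgacctgaata
Tnfrsf1a, chr6:125349473-125349497, plus strand: gcttccTTCCGTGAAattgacaaca
Tnfrsf1b, chr4:145247033-145247061, minus strand: agcgcattcaTTCCCGGAAgagatgctgg
Tnfrsf25, chr4:152116317-152116342, plus strand: gggcctccacTTCTCAGAAggcatgg
Their first bases lay 136, 93, 244, 181 and 16 bases before the RefSeq start, in that order. The NF-kB consensus, searched on both strands, was in windows of 3 members (Tnfrsf9, Tnfrsf8 and Tnfrsf25) and in 7.25% of all promoter windows. A match of letters is a description of these windows and not a bound site.

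Per kilobase of summed exon length, Cd27 was the most abundant member by far. It averaged 111 CPM per kb over the 6 mice, followed by Tnfrsf18 at 35.7, Tnfrsf4 at 24.0 and Tnfrsf1b at 15.9. Fas at 9.75 and Tnfrsf14 at 9.31 CPM per kb were nearly level, and Tnfrsf1a stood at 4.83. The lowest members were Tnfrsf25 at 2.30, Tnfrsf8 at 2.10 and Tnfrsf9 at 1.54 CPM per kb. Along this order only 2 neighbours did not overlap over the 6 mice, Cd27 above Tnfrsf18 and Tnfrsf1b above Fas. The ranges of all other neighbours overlapped, which does not compare the genes within a mouse. Cd27 overlaps Vamp1 and Mir8113 in the annotation, Tnfrsf9 overlaps Camta1 on the other strand, Tnfrsf18 overlaps Gm16008 on the other strand and Fas overlaps Gm27818. How reads of such overlaps were counted is not given in the sources used here, so their part in these values is not known.

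**Figure D1:**
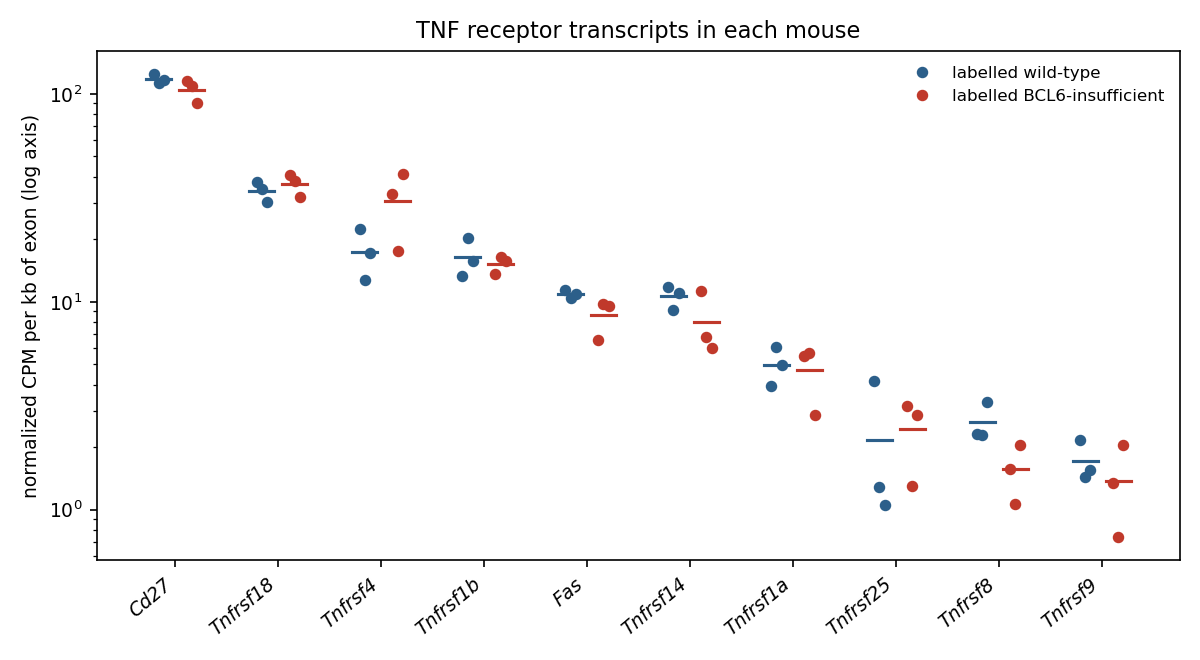
Normalized CPM per kb of exon (log axis) of the 10 TNF receptors, each point a mouse with its technical repeats summed and each bar the mean of 3 mice, blue for the wild-type label and red for the BCL6-insufficient label. Cd27 lies above every other receptor in all 6 mice, and the colours overlap for all members except Fas and Tnfrsf8.

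The first question was which of the receptors differed between the labels. Of the 10 members, 1 was higher (Tnfrsf4), none was lower and 9 did not pass an adjusted p of 0.05 in edgeR's test, a share of 10% against 18.0% of all genes tested. At an unadjusted p under 0.05 there were 2 members, Tnfrsf4 and Tnfrsf8, beside 3937 of all 12719 genes tested. DESeq2 called none of the 10 members and limma voom on the 12 libraries called both Tnfrsf4 and Tnfrsf8. The median log2 fold change of the members was -0.14, beside 0.011 over all genes tested, with 3 positive and 7 negative values. This member median was negative in every alternative, but its size varied. Offsets for GC and length brought it to -0.029 (all genes 0.015), and technical repeat 1 alone to -0.0084 (all genes 0.0014). Technical repeat 2 alone gave -0.21 (all genes -0.0059), and limma on log2(TPM + 0.1) gave -0.27 (all genes -0.11). The mice of the labels did not overlap for 2 of the 10 members, Fas and Tnfrsf8, a lower share than the 34.4% of all genes tested whose mice did not overlap.

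OX40, encoded by Tnfrsf4, was the receptor that rose. It was measured at 45.1, 24.0 and 56.2 normalized CPM in the 3 mice labelled BCL6-insufficient and at 30.5, 17.3 and 23.4 in the 3 mice labelled wild-type. Mice 1 and 3 of the BCL6-insufficient label exceeded all the wild-type mice, while mouse 2 lay below the highest of them, so the labels overlapped. The means were 41.8 ± 16.4 and 23.7 ± 6.59 CPM (SD, n = 3 each), a 1.76-fold difference with a log2 fold change of 0.81 (SE 0.23, 95% interval 0.33 to 1.30, adjusted p = 0.0174 from edgeR's test). A two-sided exact permutation test over the 6 mice gave p = 0.2 for Tnfrsf4, where 3 mice against 3 cannot go below 0.1. In these bulk samples, a change in the number of cells with a transcript and a change in the transcript per cell cannot be told apart.

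The call of Tnfrsf4 was lost in 9 of 23 alternatives, although the sign was positive in all of them. DESeq2 gave a log2 fold change of 0.81 with an adjusted p of 0.177, technical repeat 2 alone gave 0.68 (edgeR adjusted p = 0.119), and the limma fits to TPM gave 0.63 to 0.64 (adjusted p from 0.283 to 0.509). Leaving out BCL6-insufficient mouse 1 (0.75, adjusted p = 0.0643), BCL6-insufficient mouse 3 (0.54, adjusted p = 0.156), wild-type mouse 2 (0.62, adjusted p = 0.105) or wild-type mouse 3 (0.80, adjusted p = 0.0608) also ended the call in edgeR's test.

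**Figure D2:**
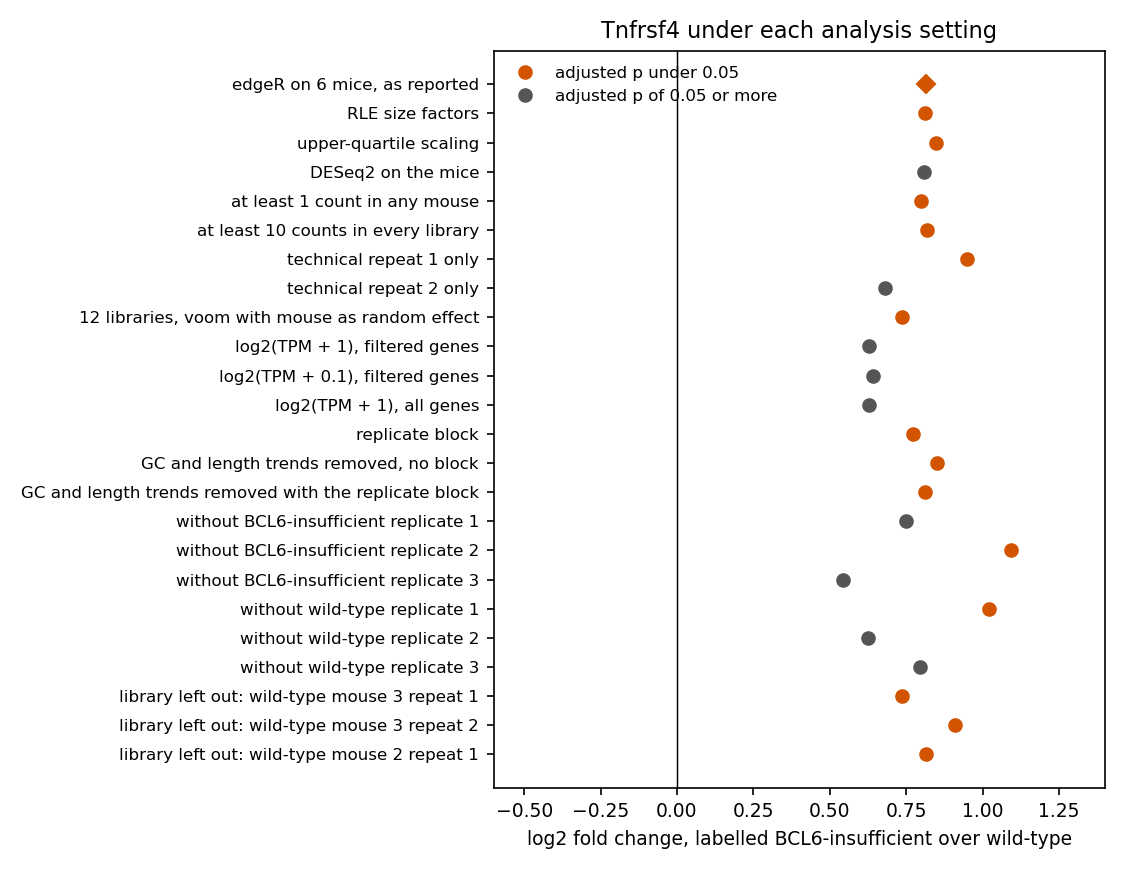
Log2 fold change of Tnfrsf4 (x axis, labelled BCL6-insufficient over labelled wild-type) under each analysis setting (y axis), as reported (diamond) and in 23 alternatives (circles), orange where the adjusted p is under 0.05 and grey where it is not. All points lie to the right of 0, between 0.54 and 1.09, and 9 alternatives are grey.

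The summed markers of myeloid cells and of regulatory T cells did not overlap between the labels. Those of B cells and of CD8 and NK cells overlapped. Myeloid markers summed to 108 to 113 CPM in the mice labelled BCL6-insufficient and to 84.0 to 89.9 in those labelled wild-type. Most of it came from Cst3, which did not pass edgeR's test (log2 fold change 0.20, adjusted p = 0.240), and Cd14 was at 0 in every mouse. Lyz2 was the only called gene of the 4 myeloid markers tested (log2 fold change 2.64, SE 0.63, adjusted p = 0.00531 from edgeR's test). Lyz2 was at 16.5, 3.67 and 3.19 CPM with the BCL6-insufficient label and at 0.0916, 2.04 and 1.58 with the wild-type label, so that BCL6-insufficient mouse 1 stood far above the rest. No myeloid marker was called without that mouse, with DESeq2, with technical repeat 2 alone or in the TPM fits, and 2 were called higher once GC and length trends were removed. Markers of regulatory T cells, which are known for high OX40 and GITR, summed to 268 to 277 against 172 to 240 CPM, most of it from Ikzf2 (log2 fold change 0.62, SE 0.13, adjusted p = 0.00204), the only called gene of the 5 tested, with none called in the TPM fits and 2 called higher once GC and length trends were removed. Foxp3, the defining factor of that lineage, was lower on average, at 3.59 ± 1.07 against 5.38 ± 0.689 CPM (SD, n = 3), and did not pass the test (adjusted p = 0.314). Gpr83 was lower too (log2 fold change -1.64, adjusted p = 0.127), while Capg (0.29, adjusted p = 0.108) and Il2ra (1.09, adjusted p = 0.283) were higher. None of them was called in edgeR's test. The B cell markers were highest in BCL6-insufficient mouse 2, at 95.7 summed CPM, and in wild-type mouse 3, at 71.5, without which 2 of them were called higher in edgeR's test. The part of these cell types in the Tnfrsf4 result was not tested.

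The gene next to Tnfrsf4 did not pass the test. GITR, the costimulator encoded by Tnfrsf18, was at 62.2, 58.3 and 48.8 CPM with the BCL6-insufficient label and at 57.5, 53.2 and 46.1 with the wild-type label. The mice of the labels were interleaved. Its log2 fold change was 0.11 with a 95% interval of -0.17 to 0.40 (adjusted p = 0.615 from edgeR's test), so a change of more than 1.31-fold upwards lay outside the interval. On the other side of Tnfrsf4, Sdf4, a calcium-binding protein of the Golgi, had a log2 fold change of -0.08 (SE 0.10, adjusted p = 0.629).

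Cd27, the costimulator that binds CD70, was at 267, 254 and 211 CPM in the mice labelled BCL6-insufficient and at 290, 264 and 270 in those labelled wild-type. Only BCL6-insufficient mouse 1 reached into the range of the wild-type mice. The log2 fold change was -0.17 (95% interval -0.38 to 0.04, adjusted p = 0.265), the narrowest interval of the 10 members. Its lower bound corresponds to 0.769 of the wild-type level. CD137, encoded by Tnfrsf9, was at 3.64, 2.01 and 5.55 CPM against 5.86, 3.91 and 4.205, with the mice of the labels interleaved. Its interval, from -1.18 to 0.53 around -0.32 (adjusted p = 0.646), leaves room for changes of either sign. Its ligand Tnfsf9 had a log2 fold change of 0.25 (adjusted p = 0.697).

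CD30, encoded by Tnfrsf8, showed the largest negative value of the members. It was at 5.46, 3.67 and 7.09 CPM in the mice labelled BCL6-insufficient and at 7.97, 7.91 and 11.4 in the mice labelled wild-type. All 3 of the former lay below all 3 of the latter (two-sided exact permutation p = 0.1, the smallest possible). The log2 fold change was -0.76 (SE 0.31, 95% interval -1.41 to -0.11, unadjusted p = 0.0244 and adjusted p = 0.10 from edgeR's test), and limma voom on the 12 libraries gave -0.88 with an adjusted p of 0.0433. Its ligand Tnfsf8 (CD30L), which T cells also make, went the other way. It was at 75.5, 61.6 and 59.7 CPM against 48.1, 53.8 and 40.3, with no overlap, and rose by a log2 fold change of 0.47 (SE 0.14, adjusted p = 0.0202 from edgeR's test). The call of Tnfsf8 was lost with technical repeat 2 alone, in the TPM fits, and without BCL6-insufficient mouse 1 (0.36, adjusted p = 0.132), wild-type mouse 1 (0.47, adjusted p = 0.0549) or wild-type mouse 3 (0.36, adjusted p = 0.125).

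HVEM, encoded by Tnfrsf14, is the receptor of LIGHT and of the inhibitory receptor BTLA. It was at 16.2, 9.71 and 8.64 CPM with the BCL6-insufficient label and at 16.8, 13.2 and 15.8 with the wild-type label. BCL6-insufficient mouse 1 lay among the wild-type mice and the other two lay below them. The log2 fold change was -0.40 (95% interval -0.91 to 0.11, adjusted p = 0.286). LIGHT itself, encoded by Tnfsf14, fell by 0.89 on the log2 scale (SE 0.21, adjusted p = 0.00399 from edgeR's test), from 21.7, 18.6 and 19.5 CPM in the mice labelled wild-type to 11.6, 10.5 and 10.2 in the mice labelled BCL6-insufficient. The labels were far apart for LIGHT, and its call was kept in every fit that left out a mouse. It was lost with technical repeat 2 alone (-0.61, adjusted p = 0.207) and with log2(TPM + 1) over all genes (-0.92, adjusted p = 0.0528).

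TNFR2, encoded by Tnfrsf1b, is the TNF receptor without a death domain. It was at 52.2, 62.5 and 60.2 CPM against 50.6, 77.5 and 60.0, with the mice of the labels interleaved. Its log2 fold change was -0.11 (95% interval -0.40 to 0.19, adjusted p = 0.671). TNFR1, encoded by Tnfrsf1a, was at 14.3, 14.7 and 7.40 CPM against 10.2, 15.6 and 12.9, a log2 fold change of -0.08 (95% interval -0.63 to 0.46, adjusted p = 0.866). Both values turned positive, to 0.01 and 0.05, once trends with GC content and length were removed. Their ligands Tnf (0.27, adjusted p = 0.431) and Lta (0.24, adjusted p = 0.545), the soluble cytokines of the family, did not pass the test either.

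Fas, the receptor that starts apoptosis of expanded lymphocytes, was at 13.5, 20.1 and 19.6 CPM in the mice labelled BCL6-insufficient and at 23.4, 21.5 and 22.4 in those labelled wild-type. The labels did not overlap, although 2 of the BCL6-insufficient mice were within 2 CPM of the lowest wild-type mouse. The log2 fold change was -0.34 (95% interval -0.75 to 0.07, adjusted p = 0.251), and its sign was negative in all 23 alternatives, none of which called it. DR3, encoded by Tnfrsf25, was at 7.21, 2.97 and 6.48 CPM against 9.43, 2.93 and 2.40. Each label held mice near the lowest and near the higher values. The log2 fold change was 0.18 with a wide interval of -0.75 to 1.12 (adjusted p = 0.826). Fasl, Tnfsf4 and Tnfsf15, which encode the ligands of Fas, OX40 and DR3, had too few counts to be tested.

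**Figure D3:**
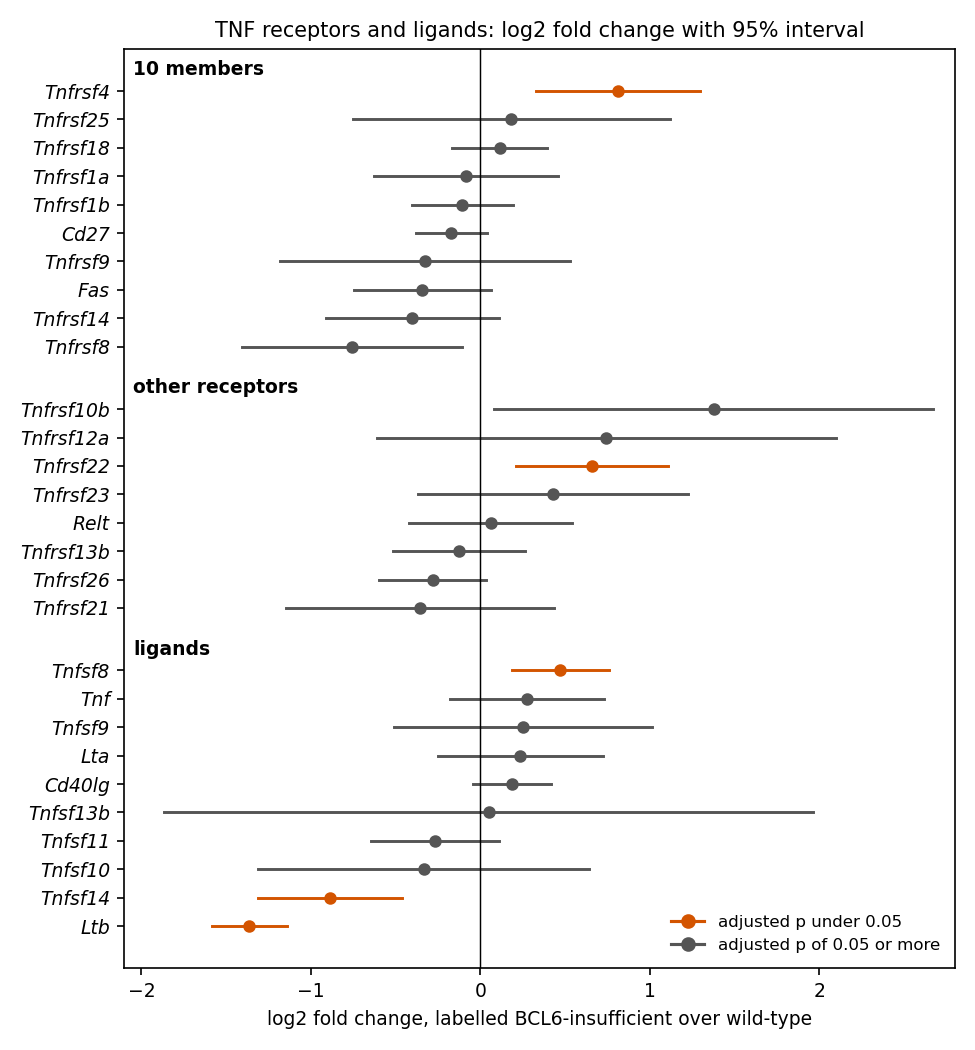
Log2 fold change (x axis, labelled BCL6-insufficient over labelled wild-type) with its 95% interval for the 10 members, 8 other TNF receptors and 10 TNF ligands that passed the expression filter (y axis), orange where edgeR's adjusted p is under 0.05. Tnfrsf4, Tnfrsf22 and Tnfsf8 lie on the positive side and Tnfsf14 and Ltb on the negative side.

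Among the other receptors of the superfamily, 14 of 18 listed genes were in the table and 8 were tested (the rest of the list was not analysed here). Of these 8, 1 was higher and none lower, where 18.0% of all genes tested were called (median log2 fold change 0.25, against 0.011 over all genes). DESeq2 and limma voom also gave 1 higher and none lower, but technical repeat 2 alone gave none higher and 1 lower, and the median was below 0 in several alternatives that tested another number of these genes (-0.14 in DESeq2, over 13 genes). Tnfrsf22, a decoy receptor for TRAIL, was at 19.4, 26.7 and 19.2 CPM with the BCL6-insufficient label and at 10.3, 15.6 and 15.4 with the wild-type label. The labels did not overlap, and the log2 fold change was 0.66 (SE 0.22, adjusted p = 0.0366). Reads of Tnfrsf22 are uncertain, since it has close copies in Tnfrsf23 and Tnfrsf26 and overlaps E230032D23Rik. Its call was lost with each technical repeat alone, in the TPM fits, and without BCL6-insufficient mouse 2 (0.49, adjusted p = 0.191) or wild-type mouse 1 (0.48, adjusted p = 0.177), 2 (0.75, adjusted p = 0.0504) or 3 (0.75, adjusted p = 0.0574) in edgeR's test. The other 7 receptors had log2 fold changes from -0.35 (Tnfrsf21) to 1.38 (Tnfrsf10b) and did not pass the test.

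Of the ligands, 13 of 18 listed genes were in the table and 10 were tested. There were 1 higher (Tnfsf8) and 2 lower (Ltb and Tnfsf14), where 18.0% of all genes tested were called. The median log2 fold change of the ligands was 0.12. It turned negative in some alternatives, as without wild-type mouse 3 (-0.20) or BCL6-insufficient mouse 3 (-0.078). Lymphotoxin beta, encoded by Ltb, forms the membrane lymphotoxin that organizes lymphoid stroma. It was at 64.9, 59.4 and 61.3 CPM in the mice labelled BCL6-insufficient and at 149, 159 and 169 in those labelled wild-type. The labels were widely separated, and Ltb fell by 1.36 on the log2 scale (SE 0.11, adjusted p = 3.4e-08 from edgeR's test), with a call in all 23 alternatives. Cd40lg, the main signal from T cells to B cells, had a log2 fold change of 0.19 (SE 0.11, adjusted p = 0.270).

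Downstream of the receptors, the 12 TRAF adaptors and associated proteins were all tested, and none was called in the edgeR fit as reported. At an unadjusted p under 0.05 there were 2 of them (median log2 fold change -0.10), beside 3937 of all 12719 genes tested. DESeq2 called 1 higher and 1 lower, and limma voom 1 higher. With upper-quartile scaling or at least 10 counts in every library, edgeR called 1 higher. The replicate block gave 1 higher and 1 lower, and technical repeat 2 alone gave 1 lower. Of 17 death domain and apoptosis genes, 1 was higher and 3 were lower (median -0.08), Cflar, Bcl2l1 and Tradd among them. Of all genes tested, 18.0% were called, and no list was tested as a set. The split of the 17 genes was 2 higher and 2 lower once GC and length trends were removed. It was none higher and 2 lower with TPM over filtered genes. Cflar, which encodes the caspase inhibitor FLIP, rose by a log2 fold change of 0.55 (SE 0.12, adjusted p = 0.00233). The survival gene Bcl2l1 (BCL-XL) fell by 0.73 (SE 0.21, adjusted p = 0.0167) and Tradd, the adaptor of TNFR1 and DR3, by 0.40 (SE 0.13, adjusted p = 0.0280). Leaving out single mice did not end the call of Cflar. It ended that of Bcl2l1 without BCL6-insufficient mouse 2 or 3 or wild-type mouse 1 (adjusted p up to 0.125) and that of Tradd without any mouse but BCL6-insufficient mouse 2 (up to 0.0989).

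Of 27 NF-kB signaling genes, 3 were higher and 3 lower (median log2 fold change 0.09), where 18.0% of all genes tested were called. The split was 5 higher and 2 lower with upper-quartile scaling, 4 and 1 with GC and length trends removed, and none and 4 in limma on log2(TPM + 1) or log2(TPM + 0.1) over filtered genes, which changes the test as well as the scale. The genes that rose were Tab2, which links ubiquitin chains to the kinase TAK1 (1.05, SE 0.18, adjusted p = 0.000288), the nuclear IkB protein Nfkbiz (0.67, SE 0.15, adjusted p = 0.00328) and the deubiquitinase Otulin (0.65, SE 0.18, adjusted p = 0.0123). Those that fell were Rbck1, a subunit of the linear ubiquitin ligase (-0.36, SE 0.09, adjusted p = 0.0100), the inhibitor Nfkbie (-0.68, SE 0.19, adjusted p = 0.0131) and the NF-kB subunit Rela (-0.35, SE 0.11, adjusted p = 0.0314). Rela lost its call in each of the 6 fits without a mouse (adjusted p from 0.0502 to 0.109) and had a value of -0.15 (adjusted p = 0.394) once GC and length trends were removed, a step that also ended the call of Rbck1 (-0.16, adjusted p = 0.273) and, among the death domain genes, of Tradd (-0.28, adjusted p = 0.124). Otulin was not called without BCL6-insufficient mouse 2 (adjusted p = 0.0538) or wild-type mouse 1 (0.0663), and Nfkbie not without wild-type mouse 2 (0.0920).

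Of 14 tested genes of T cell activation, 3 were higher (Icos, Irf4 and Cd69) and 2 lower (Egr2 and Cd44), where 18.0% of all genes tested were called. The median log2 fold change of the 14 genes was 0.05. Icos, a costimulator of Tfh cells outside the TNF receptor family, rose by 0.64 (SE 0.10, adjusted p = 0.000147), a transcription factor of activated T cells, Irf4, by 0.70 (SE 0.18, adjusted p = 0.00947) and the early activation antigen Cd69 by 0.60 (SE 0.18, adjusted p = 0.0216). Egr2, induced by the T cell receptor, fell by 1.12 (SE 0.30, adjusted p = 0.0123) and the adhesion receptor Cd44 by 0.52 (SE 0.14, adjusted p = 0.0126). Icos kept its call without any single mouse, and Cd69 was not called once GC and length trends were removed (0.44, adjusted p = 0.0842). Irf4 and Cd69 lost it without BCL6-insufficient mouse 1 or wild-type mouse 3 (adjusted p up to 0.1499), Egr2 without mouse 2 of either label (up to 0.10) and Cd44 without BCL6-insufficient mouse 3 or wild-type mouse 1 (up to 0.103).

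The genes whose pattern over the 12 libraries was most like that of Tnfrsf4 were Ndor1-1, Nt5e and Nufip2, with root mean square differences of 0.33, 0.35 and 0.36 in log2 normalized CPM after each gene was centred on its own mean. Tnfrsf4 itself varied by 0.64 around its mean on that scale. Nt5e, which encodes the ectonucleotidase CD73, had a log2 fold change of 1.17 (SE 0.27, adjusted p = 0.00372), while Ndor1-1 (0.56, adjusted p = 0.104) and Nufip2 (0.54, adjusted p = 0.107) did not pass the test.

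The technical repeats were often further apart than counting alone gives. Over the 10 members and 6 mice, 32 of 60 pairs of repeats (53.3%) were further apart than 1.96 counting errors. Tnfrsf25 differed up to 7.34-fold between repeats, from 4.79 to 0.653 CPM in wild-type mouse 3, where 27 and 5 reads were counted. Tnfrsf9 differed up to 3.12-fold and Tnfrsf8 up to 2.49-fold. Cd27, with 2054 to 3668 counts in a mouse, differed at most 1.29-fold. For Tnfrsf4 the widest gap was 1.81-fold, in BCL6-insufficient mouse 2, whose repeats gave 29.1 and 16.1 CPM, the same mouse that fell among the wild-type mice.

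**Figure D4:**
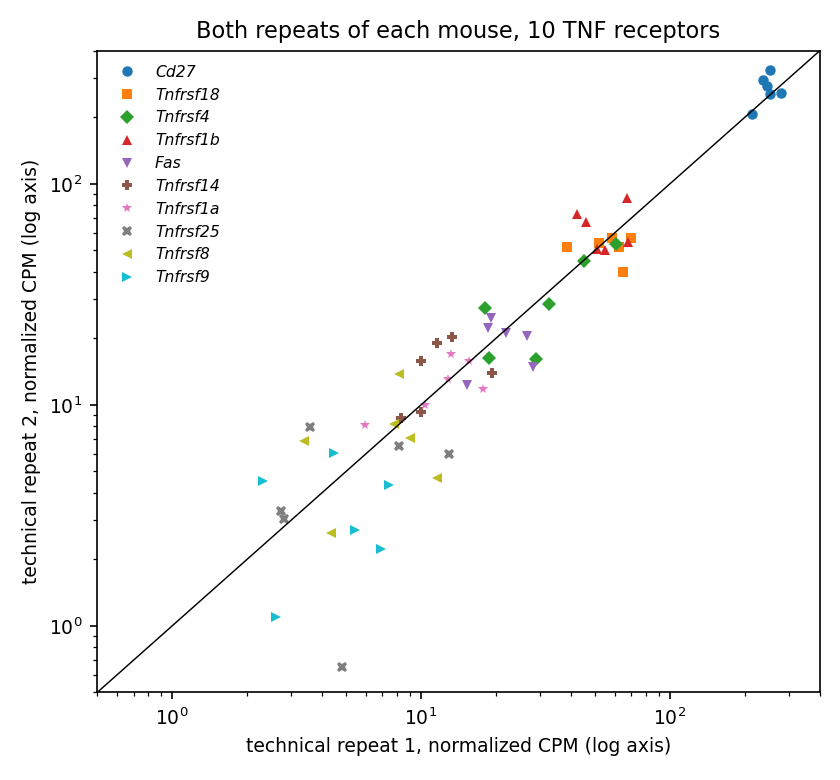
Normalized CPM of technical repeat 1 (x axis) against technical repeat 2 (y axis), both on log axes, with a point for each of the 10 members in each of 6 mice and a line of equality. Cd27 stays close to the line, while Tnfrsf25, Tnfrsf9 and Tnfrsf8 at the low end scatter around it by up to 7.34-fold.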

How the data were processed

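RNA-seq libraries (SMART-Seq2) of the sorted cells of 6 recipient mice were used, 2 technical repeats each. After alignment to GRCm38 with Hisat2 2.2.1, the authors counted reads by gene with HTSeq-count and deposited these raw counts; the annotation release and strand setting are not given in the sources used here. The authors also deposited TPM values made from these counts, which served only as an alternative. The members and gene lists were chosen with earlier results of these data known. Repeats were summed per mouse, and the mice were compared with edgeR 4.0.16 (filterByExpr, TMM normalization, quasi-likelihood test, Benjamini-Hochberg over 12719 genes). A gene was called at an adjusted p under 0.05, and its standard error is the size of the log2 fold change over the root of F. Normalized CPM are counts scaled by TMM library sizes. Gene coordinates and exon lengths were from GENCODE on GRCm38, which held 23822 of the symbols as written and 237 under a synonym, and lacked 502. The genes named were the members, the other tested receptors and ligands, the called genes of the pathway lists (at most 5 per direction), Bcl6, markers and the 3 genes nearest to a called member; a few genes of these lists are not reported here.

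Whether the recipients of a label shared a donor is not stated for this transfer, so p-values measure the spread between recipients. The alternatives were DESeq2 1.42.0, limma 3.58.1 (voom with mouse as random effect, and log2(TPM + 1) or log2(TPM + 0.1)), other scalings and filters, each repeat alone, the mouse number as a block, offsets for GC and length trends (mgcv 1.9.3) and leaving out each mouse. Leaving out each of 3 single libraries was added after the data were seen. Scripts were tested on simulated data. Depth was 3343375 to 8315722 counts per library. Counting error treats each read as a separate molecule, which reads lacking molecular identifiers are not, and the source of the further spread between libraries was not tested.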

Additional observations from a re-analysis of the deposited data

Results flagged for a closer look

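In 3 of 22 sets of 6 libraries of a label (10 members and Bcl6), a single library stood apart from the others by Dixon's test. Chance would give about 1.1 if the libraries were independent, which the 2 repeats of a mouse are not. For Tnfrsf18, wild-type mouse 3 repeat 1 was low at 38.7 normalized CPM, with the other 5 libraries of the label between 51.8 and 58.3. For Tnfrsf8, wild-type mouse 3 repeat 2 was high at 13.9 CPM, with the others between 7.06 and 9.02, and without that library the log2 fold change of Tnfrsf8 was -0.57 (adjusted p = 0.283 from edgeR's test). For Bcl6, wild-type mouse 2 repeat 1 was high at 100.01 CPM, with the others between 46.6 and 63.0. Without any single library of these 3, the call of Tnfrsf4 was kept, with edgeR adjusted p of 0.0354, 0.0168 and 0.0317 in the order above.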

How the results depend on the processing

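Of 228 values of the members over 23 alternatives, 200 kept their sign and their side of the threshold, 18 changed sign, 9 lost a call (all Tnfrsf4) and 1 gained a call (Tnfrsf8); the causes were not tested. The count of called members, 1 as reported, was 0 with DESeq2, with technical repeat 2 alone and in the 3 TPM fits, 2 with limma voom, and 0 to 1 when each mouse was left out. The 2288 genes called fell to 1059 with repeat 1 alone, 1446 with repeat 2 alone, 1305 and 1260 with log2(TPM + 1) and log2(TPM + 0.1), 221 with log2(TPM + 1) over all genes, and 1424 to 1972 when each mouse was left out. The median log2 fold change of all genes was -0.11 with log2(TPM + 0.1). No sign change concerned a called value. With repeat 1 alone, Cd27 was at 0.026, Tnfrsf1b at 0.0895, Tnfrsf14 at 0.12 and Tnfrsf25 at -0.49 on the log2 scale; with repeat 2 alone, Tnfrsf9 was at 0.37 and Tnfrsf18 at -0.13. With GC and length trends removed, Tnfrsf1a and Tnfrsf1b were at 0.047 and 0.011, and with the replicate block as well at 0.010 and 0.030. Leaving out each mouse gave -0.24 to 0.16 for Tnfrsf1a, -0.25 to 0.064 for Tnfrsf1b and -0.16 to 1.05 for Tnfrsf25. Without wild-type mouse 3 repeat 2, Tnfrsf1b was at 0.022 and Tnfrsf25 at -0.055. Whether mice of the same number shared more than that number is not stated in the sources used here (correlations of their deviations 0.078, -0.032 and 0.020). With the mouse number as a replicate block, 2579 genes and 1 member (Tnfrsf4, 0.77) were called, and not every mouse correlated best with its own number. Calls of genes named from the other receptor, ligand and pathway lists were also lost in edgeR without single libraries. Without wild-type mouse 3 repeat 2 these were Tnfrsf22, Tradd, Cd44 and Egr2 (adjusted p 0.166, 0.126, 0.0901 and 0.0702). They were Tnfrsf22, Irf4 and Rela without wild-type mouse 2 repeat 1 (0.0512, 0.0832 and 0.0847) and Rela without wild-type mouse 3 repeat 1 (0.0575). The marker lists changed as well. Without wild-type mouse 3 repeat 2, 3 CD4 T cell markers were called higher and 1 lower, and 3 Tfh markers higher and 2 lower. Without wild-type mouse 2 repeat 1, 2 CD4 T cell markers were called higher and 2 lower. Among the genes of the receptor, ligand and pathway lists, all 3 limma fits to TPM lost the calls of Cflar, Nfkbiz, Tab2, Otulin, Irf4, Cd69, Cd44, Bcl2l1, Tnfrsf22 and Tnfsf8 (adjusted p 0.0538 to 0.375). With log2(TPM + 1) over all genes they were also lost for Icos, Egr2, Nfkbie, Rela, Tradd and Tnfsf14 (0.0528 to 0.138). Of 9 CD4 T cell markers, 1 was called higher and 2 lower with log2(TPM + 1) over filtered genes, and none over all genes. Of 12 Tfh markers, 1 was called higher and 1 lower over all genes. Low counts limit Tnfrsf9, Tnfrsf25 and Tnfrsf8, whose intervals are the widest.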
